A study of Mus musculus with 9 samples.

Results

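Autophagy, the breakdown of cytoplasm and cargo that a double membrane encloses and carries to the lysosome, was followed through 34 genes for its core machinery and cargo receptors in RNA sequencing of mouse bone-marrow-derived macrophages. The genes are a list of symbols, with no threshold on a measured value in its rule, drawn up when earlier results of these data were known. All 34 were among the 22376 gene symbols of the data, and all 34 passed the filter on low values that left 13740 genes to test. By role they were 5 genes of the initiation kinase complex, 7 of the lipid kinase complex and its regulators, 5 of lipid supply and the early membrane, 7 of the conjugation enzymes, 5 ATG8 proteins and 5 cargo receptors.

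Marrow of wild-type C57Bl/6 mice was grown for 1 week in 10 ng/ml macrophage colony-stimulating factor (M-CSF), the factor was washed off all cells, and 50000 cells per well were kept for 48 h. Libraries 1 to 3 came from wells given PD-L1 antibody at 100 µg/ml, PD-L1 being a surface ligand of the T cell receptor PD-1. Libraries 4 to 6 had 100 µg/ml of an isotype-matched antibody without that target, and libraries 7 to 9 were untreated. Whether the 3 wells of a group held marrow from different mice is not in the labels, so a p-value here reflects only how far these wells differ, which may be technical spread. Exonic read equivalents, the deposited coverage turned back into reads, came to between 23554320 (untreated 7) and 40116466 (untreated 9) per library, and the members were read with between 126 (Atg10) and 43383 (Sqstm1) of them in a library. Of 7 macrophage markers 7 were present, with summed levels of 20800 to 24600 CPM (exonic read equivalents per 1000000 of the scaled library) in PD-L1 antibody, 18900 to 22400 in isotype antibody and 16900 to 22100 in untreated libraries. Within them 3 were called higher and 1 lower with PD-L1 antibody in both comparisons: Adgre1, for example, had 4030 to 4160 CPM with PD-L1 antibody, 1540 to 1870 CPM with isotype antibody and 1480 to 2000 CPM in untreated libraries, and Cd68, which was lower, 725 to 827, 1110 to 1210 and 1160 to 1170 CPM. PD-L1 antibody 2 was read on lane 4 and the other 8 libraries on lane 1, and calls of members that were lost without it are named beside each member. For single genes outside the members such losses are not given. Granulocyte markers were lower in sum with PD-L1 antibody: 10 genes summed to 357 to 503 CPM with PD-L1 antibody, 680 to 1270 with isotype antibody and 510 to 706 in untreated libraries. Of the 9 tested, 5 were called lower against isotype antibody with 0 higher. T cell markers summed to at most 23.1 CPM, and Cd3e stayed under 1 CPM in every library. Against untreated wells 1 granulocyte marker was called higher and 6 lower. Of 4 megakaryocyte markers 2 were called lower against isotype antibody and 4 against untreated wells. Their sums were 25.4 to 46.3 CPM with PD-L1 antibody, 44.7 to 67.9 with isotype antibody and 56.2 to 94.0 in untreated libraries. Of 4 T cell and 3 erythroid markers tested, 1 of each was called lower against isotype antibody and 2 of each against untreated wells. Erythroid markers summed to at most 7.91 CPM. Of 7 dendritic cell markers 4 were called lower and 1 (Xcr1) higher, while their sums overlapped (402 to 461 CPM with PD-L1 antibody and 319 to 536 CPM with isotype antibody). The part of these cell types in the results was not tested, and in such bulk samples fewer cells of a type and less RNA per cell cannot be told apart. Counts of markers called stand beside 36.4% of all genes called against isotype antibody (18.2% lower) and 42.4% against untreated wells (20.5% lower).

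Autophagy starts when the ULK kinase complex is released from the restraint of mTOR and acts on a lipid kinase complex around Beclin 1, whose product, phosphatidylinositol 3-phosphate, marks the growing membrane. Lipid-carrying proteins enlarge that membrane, and a set of ubiquitin-like enzymes fixes ATG8 proteins (the LC3 and GABARAP families) to it. Receptors such as p62 (Sqstm1) hold ubiquitin-tagged cargo with one end and ATG8 proteins with the other. Macrophages use this machinery to clear damaged mitochondria and intracellular microbes, and use part of it to decorate phagosomes with LC3. Transcript levels of these genes do not measure autophagic flux, which was not measured here.

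With the PD-L1 antibody genes of the machinery moved in both directions. By role, 2 of 5 membrane-supply genes rose against isotype antibody, while 3 of 5 ATG8 genes and 2 of 5 initiation genes fell. Among 5 receptors 2 rose and 2 fell. Each role holds few genes to set beside the 36.4% of all genes called, and no role was tested as a set. Against isotype antibody 6 of the 34 members rose, namely 0.80 for Vmp1, 0.66 for Tax1bp1, 0.45 for Sqstm1, 0.38 for Atg9a, 0.35 for Atg5 and 0.33 for Uvrag in log2 fold change. Falls were called for 10 members, and the largest were those of Calcoco1 (-0.78), Gabarapl1 (-0.68) and Optn (-0.46). The 16 calls were 47.1% of the members, beside 36.4% of all genes tested (18.2% higher and 18.2% lower) in limma's moderated test, two-sided, at a Benjamini-Hochberg adjusted p under 0.05. The members' median log2 fold change was -0.09, beside -0.01 over all genes. No member changed by 2-fold or more, a size that 8.06% of all genes passed. The libraries of the 2 groups did not overlap for 25 members (73.5%), beside 52.1% of all genes.

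Against untreated wells 7 members rose and 10 fell with the PD-L1 antibody. These 50% of members stood beside 42.4% of all genes called (22% higher and 20.5% lower), and the median log2 fold change was -0.03, beside -0.01 over all genes. The libraries did not overlap for 21 members (61.8%), beside 51.2% of all genes. The 6 rises against isotype antibody were called against untreated wells too, with Ambra1 added, and 9 falls were called in both, with Rubcn called against isotype antibody alone and Ulk2 against untreated wells alone. Calls that held under every alternative run were those of Atg13, Map1lc3b, Gabarapl1, Calcoco1 and Tax1bp1 in both comparisons, and also of Ulk1, Ulk2, Map1lc3a and Sqstm1 against untreated wells. Scaling by total counts, which put the median of all genes at -0.16 against isotype antibody, left 2 rises (Vmp1 and Tax1bp1) and gave 17 falls, with Uvrag at 0.15, Atg9a at 0.20, Atg5 at 0.17 and Sqstm1 at 0.27 no longer called. Against untreated wells it put the median at -0.13, left 3 rises (Vmp1, Tax1bp1 and Sqstm1) and gave 14 falls. Both comparisons use the same 3 PD-L1 antibody libraries, so they are not independent of each other.

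**Figure D1:**
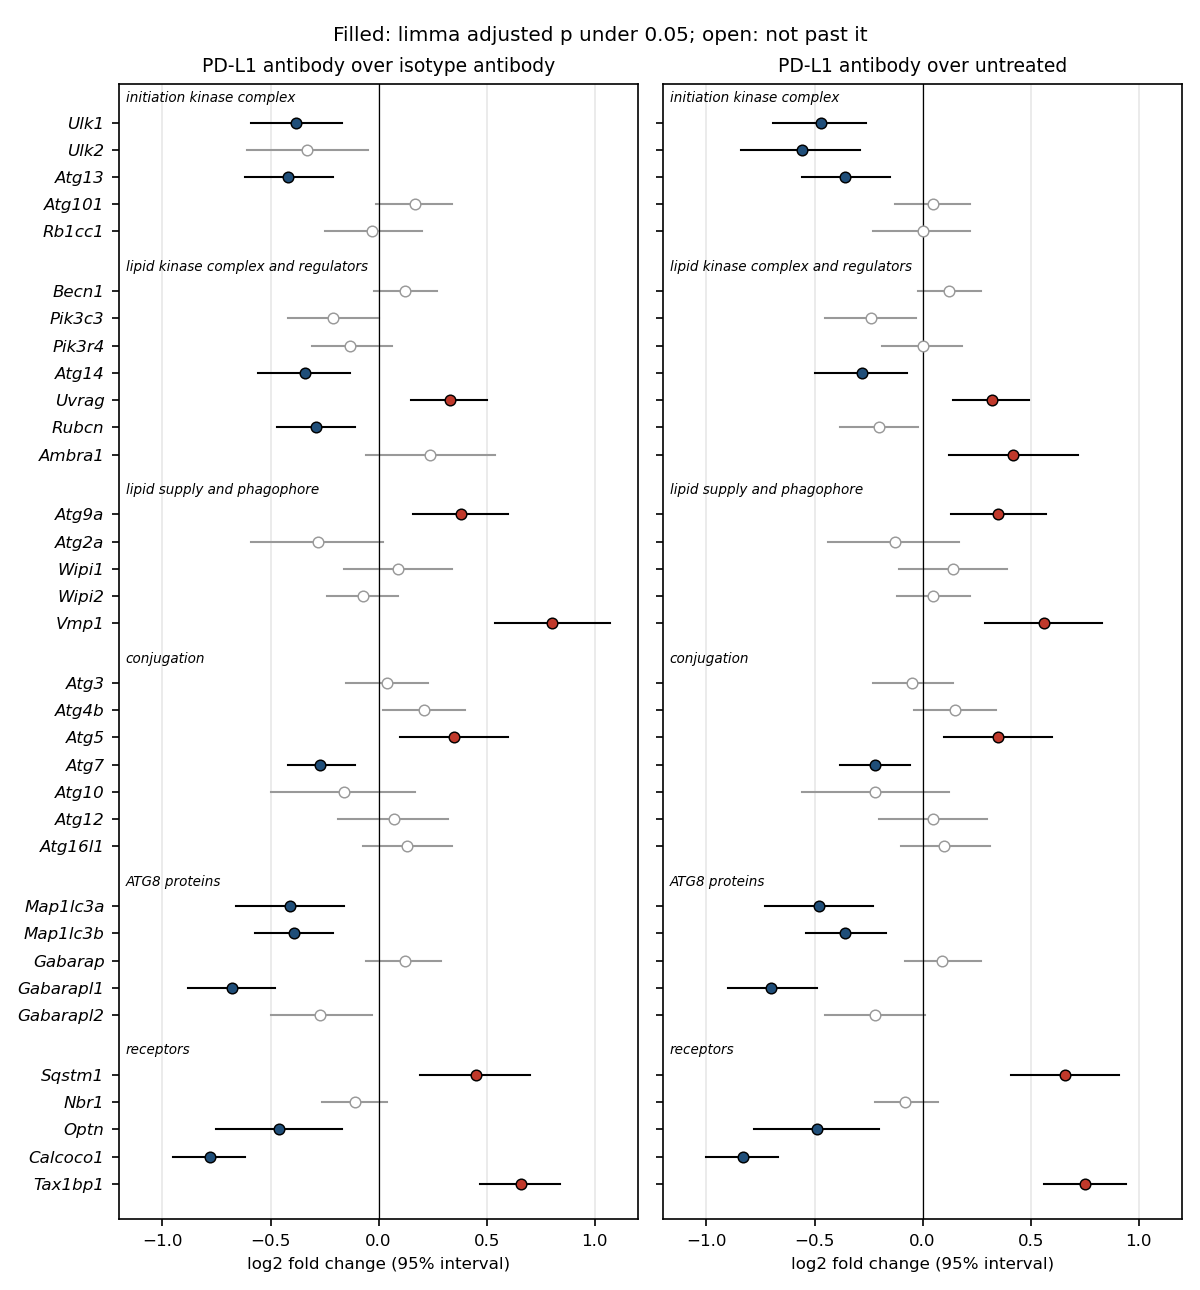
Log2 fold change of each of the 34 genes with PD-L1 antibody over isotype antibody (left) and over untreated wells (right), with 95% confidence intervals from limma; filled points passed an adjusted p of 0.05. Against isotype antibody 6 filled points lie right of 0 and 10 left of it, from -0.78 (Calcoco1) to 0.80 (Vmp1).

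Promoters were searched for the binding motifs of TFE factors and of Nrf2, of which some members are known targets. The 250 bases before the transcription start in RefSeq (GRCm38.p6) were found for 28 of the 34 members. The motifs, read on both strands, were CACGTG, the core of the E-box bound by TFE factors, and TGACNNNGC, the core of the antioxidant response element bound by Nrf2. CACGTG was in the windows of 4 of the 28 members (14.3%: Atg3, Atg5, Atg7 and Rubcn), beside 6.86% of 27025 genes. TGACNNNGC was in those of 4 others (14.3%: Atg13, Tax1bp1, Ulk2 and Vmp1), beside 11.5% of genes. Windows are printed for the largest rises and falls, for a pair of ATG8 genes that moved differently, and for a rise and a fall with the same E-box, 5' to 3' along the gene's strand, with motif matches in capitals.
Vmp1, chr11:86683837-86684086, minus strand: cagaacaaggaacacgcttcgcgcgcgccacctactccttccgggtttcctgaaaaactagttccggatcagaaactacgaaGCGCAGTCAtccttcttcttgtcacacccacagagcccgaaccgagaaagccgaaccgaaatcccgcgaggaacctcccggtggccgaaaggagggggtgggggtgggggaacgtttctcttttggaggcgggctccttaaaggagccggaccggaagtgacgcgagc
Tax1bp1, chr6:52713915-52714164, plus strand: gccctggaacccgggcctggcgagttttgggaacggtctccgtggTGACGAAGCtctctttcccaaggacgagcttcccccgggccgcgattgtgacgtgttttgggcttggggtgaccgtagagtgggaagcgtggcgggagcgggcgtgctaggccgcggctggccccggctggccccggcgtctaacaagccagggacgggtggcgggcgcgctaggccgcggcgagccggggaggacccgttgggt
Calcoco1, chr15:102722179-102722428, minus strand: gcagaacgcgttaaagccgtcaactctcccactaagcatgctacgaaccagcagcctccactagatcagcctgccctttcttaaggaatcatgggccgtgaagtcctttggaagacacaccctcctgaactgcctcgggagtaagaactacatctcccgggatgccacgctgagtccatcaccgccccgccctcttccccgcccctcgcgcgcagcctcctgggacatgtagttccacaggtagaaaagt
Gabarapl1, chr6:129532942-129533191, plus strand: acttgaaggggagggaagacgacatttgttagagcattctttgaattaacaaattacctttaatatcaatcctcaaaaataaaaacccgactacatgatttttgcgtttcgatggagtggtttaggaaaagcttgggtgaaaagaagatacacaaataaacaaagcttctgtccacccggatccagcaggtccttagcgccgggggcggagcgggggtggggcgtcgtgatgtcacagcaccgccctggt
Gabarap, chr11:69991120-69991369, plus strand: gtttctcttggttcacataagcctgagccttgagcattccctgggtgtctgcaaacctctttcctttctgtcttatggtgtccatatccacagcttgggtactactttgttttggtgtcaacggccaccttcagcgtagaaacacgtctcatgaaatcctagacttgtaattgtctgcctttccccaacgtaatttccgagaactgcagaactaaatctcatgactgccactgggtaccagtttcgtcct
Atg5, chr10:44268089-44268338, plus strand: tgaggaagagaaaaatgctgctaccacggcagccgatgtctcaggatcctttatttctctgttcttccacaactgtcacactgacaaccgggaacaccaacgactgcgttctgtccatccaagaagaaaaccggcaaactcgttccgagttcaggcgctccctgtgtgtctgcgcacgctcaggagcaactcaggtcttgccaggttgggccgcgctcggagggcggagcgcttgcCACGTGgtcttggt
Rubcn, chr16:32868367-32868616, minus strand: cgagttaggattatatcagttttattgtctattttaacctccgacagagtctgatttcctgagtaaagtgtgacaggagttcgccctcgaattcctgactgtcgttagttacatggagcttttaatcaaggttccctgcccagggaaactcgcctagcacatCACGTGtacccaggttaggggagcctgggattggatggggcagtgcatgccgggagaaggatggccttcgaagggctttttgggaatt
Some members have several starts, and a window need not lie before the transcript that was measured. The Vmp1 window shown belongs to a start 164 bases downstream of that of the measured transcript, and this window lies partly inside the measured span. The other Vmp1 windows also held TGACNNNGC. For Tax1bp1 the match lies at a start 436 bases downstream, and the window shown lies wholly inside the measured span. The window at the measured transcript's own start held neither motif. A further window of Rubcn, 9363 bases away, held neither, and the only Atg7 window lies 27999 bases from the measured start. At the measured start itself, CACGTG stood before Atg5 (called higher), Rubcn (called lower against isotype antibody) and Atg3 (not called), and TGACNNNGC before Atg13 (called lower) and Ulk2 (called lower against untreated wells). The windows of Calcoco1, Gabarapl1, Gabarap and Sqstm1 held neither. A match is a description of the sequence, and the windows leave out more distant elements.

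The initiation complex held falls and no rises: 2 of its 5 genes fell against isotype antibody and 3 against untreated wells, few genes to set beside the 36.4% and 42.4% of all genes called. Atg13, the adaptor that ties the kinases to their scaffold, had 61.01, 52.9 and 60.9 CPM in PD-L1 antibody libraries, against 77.4, 77.97 and 78.8 CPM with isotype antibody and 85.04, 69.9 and 70.2 CPM in untreated libraries. Every PD-L1 antibody library lay below every other, and the log2 fold changes were -0.42 (SE 0.09, limma adjusted p = 0.00479) against isotype antibody and -0.36 (0.0102) against untreated wells. Ulk1, the kinase that mTOR holds back, had 51.6, 52.8 and 61.02 CPM with PD-L1 antibody, 73.0, 78.4 and 64.8 CPM with isotype antibody and 71.2, 81.2 and 78.4 CPM in untreated libraries. Its groups did not overlap either, and the log2 fold changes were -0.38 (SE 0.10, limma adjusted p = 0.0103) and -0.47 (0.00252). The call of Ulk1 against isotype antibody was lost without isotype antibody 5 (-0.32, limma adjusted p = 0.0512). Its paralog Ulk2 had 47.4, 45.6 and 48.7 CPM with PD-L1 antibody, 62.5, 62.6 and 54.1 CPM with isotype antibody and 55.9, 81.2 and 76.01 CPM in untreated libraries, again without overlap. Ulk2 fell against untreated wells (-0.56, SE 0.13, limma adjusted p = 0.0043), while its value against isotype antibody was -0.33 (0.0609). The latter passed when untreated 7 or untreated 8 was left out of the shared estimate of spread (limma adjusted p = 0.00355 and 0.0464). It also passed with total counts (-0.50), upper-quartile scaling (-0.39), a mean of at least 1 CPM (-0.34), DESeq2 (-0.33) and the 2 groups only (-0.33). Atg101, the partner that stabilises Atg13, stood at 0.17 and 0.05, and the scaffold Rb1cc1 (FIP200) at -0.03 and 0.00 against isotype antibody and untreated wells, none of them called.

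In the lipid kinase complex the catalytic core was not called, and its regulators went different ways. Becn1 (Beclin 1), the kinase Pik3c3 (VPS34) and its partner Pik3r4 (VPS15) had log2 fold changes of 0.12, -0.21 and -0.13 against isotype antibody and 0.12, -0.24 and 0.00 against untreated wells. None of these was called, though Pik3c3 passed against untreated wells without PD-L1 antibody 1 (-0.30) or untreated 7 (-0.31). Under upper-quartile scaling it passed in both comparisons (-0.27, limma adjusted p = 0.0409, and -0.32, 0.0177), as it did with total counts (-0.38 each) and with edgeR on the deposited counts (-0.30 and -0.28). Pik3r4 was called lower against isotype antibody with total counts alone (-0.30, limma adjusted p = 0.0223). Atg14 and Uvrag take turns in this complex, Atg14 directing it to new autophagosomes and Uvrag to endosomes. Atg14 had 26.6, 24.6 and 21.5 CPM with PD-L1 antibody, 32.2, 29.1 and 31.7 CPM with isotype antibody and 27.8, 31.1 and 30.04 CPM in untreated libraries, whereas Uvrag had 157, 151 and 153 CPM, 134, 123 and 112 CPM and 129, 119 and 122 CPM in the same groups. For both genes all PD-L1 antibody libraries stood apart from the other 6, Atg14 below them and Uvrag above them. Uvrag rose, with log2 fold changes of 0.33 (SE 0.08, limma adjusted p = 0.00788) against isotype antibody and 0.32 (0.00799) against untreated wells. Its call against isotype antibody was lost with edgeR on the deposited counts (0.23, adjusted p = 0.0505), and both calls with total counts (0.15 and 0.17). Atg14 fell in both comparisons (-0.34, SE 0.10, limma adjusted p = 0.017; -0.28, 0.0368). Its call against isotype antibody was lost without PD-L1 antibody 3, isotype antibody 4 or isotype antibody 6 (-0.27, -0.32 and -0.33), and that against untreated wells without PD-L1 antibody 2 or 3 or untreated 8 or 9 (-0.29, -0.20, -0.25 and -0.27). The call against untreated wells was also lost with edgeR on the deposited counts (-0.22) and with the 2 groups only (-0.29).

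Rubcn (Rubicon), which slows the maturation of autophagosomes and serves LC3-associated phagocytosis, had 53.4, 52.7 and 56.3 CPM with PD-L1 antibody, 65.95, 64.2 and 69.2 CPM with isotype antibody and 69.2, 60.6 and 57.6 CPM in untreated libraries. The groups did not overlap, and Rubcn fell against isotype antibody (-0.29, SE 0.08, limma adjusted p = 0.018) but was not called against untreated wells (-0.20, 0.0755). With total counts (-0.35, limma adjusted p = 0.0106) and upper-quartile scaling (-0.28, 0.0219) it was called against untreated wells too. The fall against isotype antibody was lost without PD-L1 antibody 1, PD-L1 antibody 2 or isotype antibody 6 (-0.28, -0.27 and -0.26). Ambra1, a scaffold of Beclin 1 and of a ubiquitin ligase, had 85.95, 82.9 and 92.9 CPM with PD-L1 antibody, 74.3, 70.3 and 76.5 CPM with isotype antibody and 85.2, 56.8 and 56.6 CPM in untreated libraries. Untreated 7 lay within the range of the PD-L1 antibody libraries and the other untreated libraries far below it. The rise of Ambra1 against untreated wells (0.42, limma adjusted p = 0.0293) was lost when PD-L1 antibody 1, 2 or 3 or untreated 8 or 9 was left out (0.43, 0.46, 0.37, 0.32 and 0.32). Total counts (0.27), upper-quartile scaling (0.34) and no filter on low values (0.40) also ended that call of Ambra1. So did edgeR on the deposited counts (0.30) and the 2 groups only (0.41). Against isotype antibody the value of Ambra1 was 0.24 (limma adjusted p = 0.202), which passed without untreated 7 (0.0128) and with the 2 groups only (0.0206).

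Genes of lipid supply and the early membrane held rises and no falls, with 2 of 5 called in each comparison, a share near the 36.4% and 42.4% of all genes called. Vmp1, a scramblase of the endoplasmic reticulum that frees lipid for the growing membrane, had 113, 125 and 111 CPM in PD-L1 antibody libraries, 68.7, 63.95 and 65.8 CPM in isotype antibody libraries and 64.1, 79.03 and 95.1 CPM in untreated libraries. The PD-L1 antibody libraries lay above all others, and the untreated ones were spread widely. Vmp1 rose by 0.80 on the log2 scale against isotype antibody (SE 0.12, limma adjusted p = 0.000409), the largest rise among the members, and by 0.56 (SE 0.12, 0.00356) against untreated wells. Atg9a, the transmembrane scramblase carried by the vesicles that seed the membrane, had 89.3, 80.9 and 105 CPM with PD-L1 antibody, 66.9, 70.5 and 72.2 CPM with isotype antibody and 77.9, 67.4 and 69.1 CPM in untreated libraries. Its groups did not overlap, and it rose by 0.38 (SE 0.10, limma adjusted p = 0.0117) and 0.35 (0.0155), and the call against untreated wells was lost without PD-L1 antibody 3, untreated 8 or untreated 9 (0.25, 0.31 and 0.32). With edgeR on the deposited counts Atg9a was called in neither comparison (0.32, adjusted p = 0.0782, and 0.35, 0.0513). The lipid-transfer protein gene Atg2a (-0.28 and -0.13) and the phosphatidylinositol 3-phosphate readers Wipi1 (0.09 and 0.14) and Wipi2 (-0.07 and 0.05) were not called. Atg2a passed against isotype antibody when untreated 7 was left out of the fit (-0.29), with the 2 groups only (-0.29) and with total counts (-0.46). Wipi2 was called lower against isotype antibody with total counts alone (-0.25, limma adjusted p = 0.0272).

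The rise of Vmp1 was in exonic reads and not in reads over the whole gene, a difference no other member showed to that extent. Vmp1 (GRCm38 chromosome 11, 86584262 to 86684000, minus strand) had 385, 389.5 and 396 deposited reads over its span, introns included, per 1000000 exonic read equivalents in PD-L1 antibody libraries, 373, 388 and 315 in isotype antibody libraries and 379, 456 and 469 in untreated libraries, ranges that overlap. Exonic read equivalents made up 29.5, 32.1 and 27.9% of those reads with PD-L1 antibody, 18.4, 16.5 and 20.9% with isotype antibody and 16.9, 17.3 and 20.3% in untreated libraries. The mean share was 11.23 points higher than with isotype antibody and 11.67 points higher than in untreated libraries, while the other 33 members lay between -2.76 and 2.22 points and between -5.39 and 4.02 points. Over all tested genes the central 95% ran from -19.5 to 8.85 points against isotype antibody, and 1.54% of genes lay above Vmp1. In edgeR's quasi-likelihood test on the deposited span counts Vmp1 had 0.07 (adjusted p = 0.727) against isotype antibody and -0.19 (0.325) against untreated wells. Ptrh2, a gene within the span, had 14.3, 13.1 and 13.7 CPM with PD-L1 antibody, 14.1, 14.5 and 14.6 CPM with isotype antibody and 13.7, 14.4 and 13.98 CPM in untreated libraries. The precursor of miR-21, Mir21a (chromosome 11, 86584067 to 86584158, minus strand), lies 104 bases beyond the 3' end of Vmp1 on the same strand, outside the span. The Mir21a entry had at most 0.118 CPM in a library. It is shorter than a sequencing read, so this low value does not measure longer RNA that may contain the precursor. Whether such RNA added to the reads of Vmp1 was not tested.

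**Figure D2:**
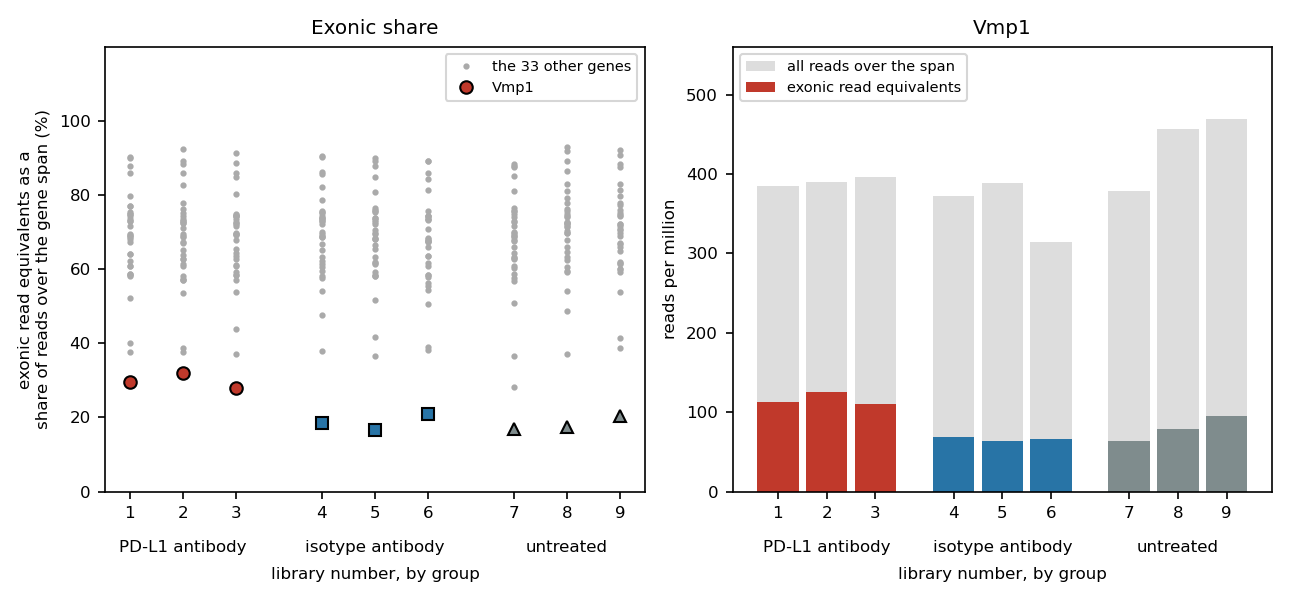
Left, exonic read equivalents as a percentage of all reads over the gene span for Vmp1 (large symbols) and the other 33 genes (grey points) in each library; right, reads over the Vmp1 span per 1000000 exonic read equivalents (grey bars) and the exonic part of them (coloured bars). Vmp1 lies between 27.9 and 32.1% in PD-L1 antibody libraries and between 16.5 and 20.9% in the other 6, while the grey bars overlap between groups.

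Among the 7 conjugation genes 1 rose and 1 fell in each comparison, beside 36.4% and 42.4% of all genes called. Atg5, which is joined to Atg12 and sets where LC3 is attached, had 47.2, 48.9 and 47.1 CPM with PD-L1 antibody, 39.4, 36.9 and 35.8 CPM with isotype antibody and 30.6, 38.99 and 43.2 CPM in untreated libraries. The PD-L1 antibody libraries were close together and above all others (0.35, SE 0.11, limma adjusted p = 0.0327, and 0.35, 0.0275). Leaving out any PD-L1 antibody library ended the call of Atg5 in both comparisons (0.33 to 0.36 and 0.34 to 0.36), as did isotype antibody 5 or 6 against isotype antibody (0.34 and 0.32). Total counts (0.17 and 0.20), upper-quartile scaling (0.29 and 0.27) and no filter on low values (0.32 and 0.33) also ended both calls. EdgeR on the deposited counts (0.32) ended that against isotype antibody, and the 2 groups only (0.35) that against untreated wells. Atg7, the activating enzyme at the head of both conjugation chains, had 63.8, 58.9 and 63.2 CPM with PD-L1 antibody, 73.5, 78.5 and 72.1 CPM with isotype antibody and 71.6, 75.2 and 70.5 CPM in untreated libraries, without overlap. Its log2 fold changes were -0.27 (SE 0.07, limma adjusted p = 0.0143) and -0.22 (0.0287). That call was lost without PD-L1 antibody 2 or isotype antibody 5 against isotype antibody (-0.23 each), and without PD-L1 antibody 1 or 2 or untreated 8 or 9 against untreated wells (-0.24, -0.19, -0.20 and -0.24). The carrier enzymes Atg3 (0.04) and Atg10 (-0.16), the protease Atg4b (0.21) and the partners Atg12 (0.07) and Atg16l1 (0.13) were not called against isotype antibody, nor against untreated wells, where they ran from -0.22 (Atg10) to 0.15 (Atg4b). Atg10 was called lower than in untreated wells without untreated 7 (-0.38).

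Of the 5 ATG8 genes 3 fell in each comparison and none rose, few genes to set beside the 18.2% and 20.5% of all genes called lower. Gabarapl1, a GABARAP family member, had 103, 91.04 and 84.1 CPM with PD-L1 antibody, 151, 151 and 144 CPM with isotype antibody and 138, 164 and 149 CPM in untreated libraries. All PD-L1 antibody libraries were below all others, and the fall was -0.68 (SE 0.09, limma adjusted p = 0.000182) against isotype antibody and -0.70 (0.000136) against untreated wells. Map1lc3b, which encodes LC3B, the form most used to count autophagosomes, had 123, 111 and 112 CPM with PD-L1 antibody, 152, 157 and 146 CPM with isotype antibody and 134, 159 and 152 CPM in untreated libraries. Map1lc3b fell, at -0.39 (SE 0.08, limma adjusted p = 0.00353) and -0.36 (0.00525), again without overlap. Map1lc3a (LC3A) had 18.3, 18.8 and 19.8 CPM with PD-L1 antibody, 27.4, 24.8 and 24.4 CPM with isotype antibody and 22.4, 29.7 and 28.96 CPM in untreated libraries. It fell in both comparisons, at -0.41 (SE 0.11, limma adjusted p = 0.0151) and -0.48 (0.00564), a call that was lost against isotype antibody without PD-L1 antibody 1 (-0.39) or isotype antibody 4 (-0.36). Gabarapl2 (GATE-16) was not called (-0.27, limma adjusted p = 0.0723, and -0.22, 0.116). It passed against isotype antibody without untreated 7 or untreated 9 (-0.27 each) and against untreated wells without untreated 7 (-0.32). In both comparisons it also passed with total counts (-0.44 and -0.37) and upper-quartile scaling (-0.32 and -0.30). With the 2 groups only it passed against isotype antibody (-0.27). Map1lc3b and Gabarapl2 have 4 and 3 near-identical processed pseudogenes in GENCODE M21, so their values are uncertain where reads could be split.

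Gabarap, the most abundant ATG8 transcript per kilobase, was called in no comparison. Its levels were 339, 322 and 313 CPM with PD-L1 antibody, 309, 292 and 296 CPM with isotype antibody and 277, 319.5 and 317 CPM in untreated libraries, ranges that overlap for PD-L1 antibody and untreated libraries and do not for the 2 antibodies. Its log2 fold changes of 0.12 (95% confidence interval -0.06 to 0.29) and 0.09 were not called, and under other scalings and tools the first ran from -0.06 to 0.14. As a share of the summed ATG8 level per exonic kilobase, Gabarap made up 63.3, 63.6 and 63.3% in PD-L1 antibody libraries, against 53.9, 52.7 and 53.8% in isotype antibody and 54.4, 53.5 and 54.0% in untreated libraries. Gabarapl1 made up 11.4% on average with PD-L1 antibody, 16.8% with isotype antibody and 16.9% in untreated libraries, and Map1lc3b 14.8, 17.8 and 17.2%. These shares do not depend on the scaling of libraries. The summed level was 477.4, 450.6 and 440.4 CPM per kilobase with PD-L1 antibody, 510.1, 494.3 and 489.9 with isotype antibody and 453.9, 532.1 and 522.6 in untreated libraries, so the sum of untreated 7 lay among those of the PD-L1 antibody libraries.

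**Figure D3:**
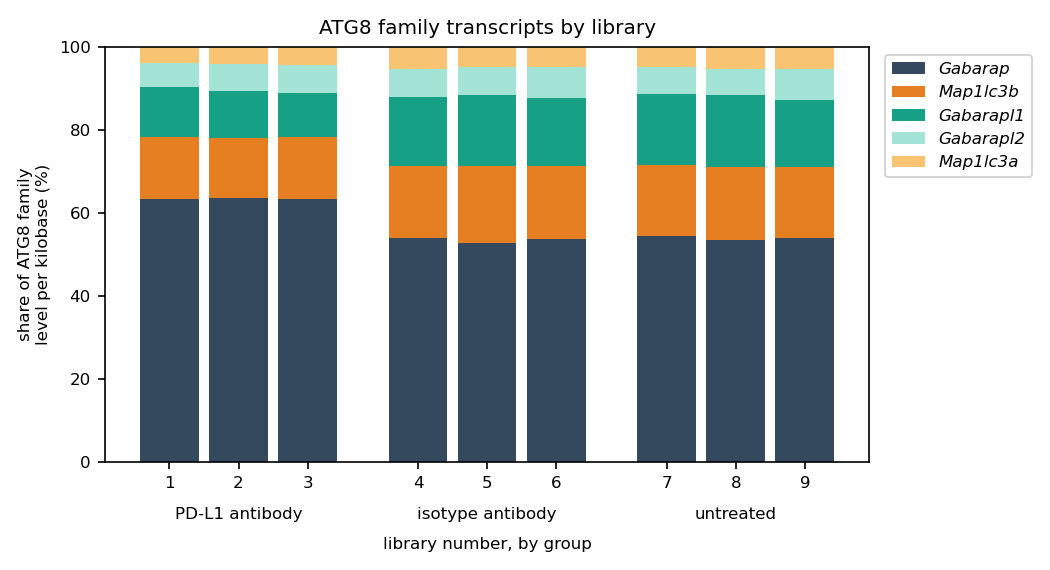
Share of each ATG8 gene in the summed ATG8 level per exonic kilobase, as stacked percentages, in each of the 9 libraries. Gabarap takes 63.3 to 63.6% in the 3 PD-L1 antibody libraries and 52.7 to 54.4% in the other 6.

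The receptors split, with 2 rises and 2 falls among 5 genes in both comparisons, few genes to set beside the 36.4% and 42.4% of all genes called. Tax1bp1, a receptor that brings ubiquitin-tagged cargo and also restrains NF-kB signalling, had 307, 311 and 269 CPM in PD-L1 antibody libraries, 187, 173 and 201 CPM in isotype antibody libraries and 176, 168 and 181 CPM in untreated libraries. It rose by 0.66 (SE 0.09, limma adjusted p = 0.000141) and 0.75 (4.8e-05) on the log2 scale, and no PD-L1 antibody library came near the others. Its relative Calcoco1, a receptor for the endoplasmic reticulum and Golgi, had 33.1, 30.9 and 33.9 CPM with PD-L1 antibody, 57.96, 56.9 and 55.7 CPM with isotype antibody and 55.2, 60.4 and 60.9 CPM in untreated libraries. Its fall was the largest among the members, -0.78 (SE 0.08, limma adjusted p = 1.61e-05) against isotype antibody and -0.83 (1.03e-05) against untreated wells. Sqstm1, the p62 receptor that also holds Keap1 and so frees Nrf2, had 1212, 1186 and 1026 CPM with PD-L1 antibody, 793, 807 and 912 CPM with isotype antibody and 826, 679 and 666 CPM in untreated libraries. The PD-L1 antibody libraries were the highest in every case, and Sqstm1 rose by 0.45 (SE 0.11, limma adjusted p = 0.0104) and 0.66 (0.000879). Optn (optineurin), a receptor for mitochondria and bacteria that is switched on by the kinase TBK1, had 9.56, 10.8 and 11.7 CPM with PD-L1 antibody, 14.9, 13.3 and 17.03 CPM with isotype antibody and 18.1, 14.6 and 13.7 CPM in untreated libraries. Its groups did not overlap, and its falls were -0.46 (SE 0.13, limma adjusted p = 0.0192) and -0.49 (0.0126). This call was lost against isotype antibody without PD-L1 antibody 1, PD-L1 antibody 2 or isotype antibody 6 (-0.39, -0.47 and -0.37) and against untreated wells without PD-L1 antibody 1 (-0.42). Nbr1, a receptor that works with p62, was not called (-0.11 and -0.08). With total counts alone it was called lower in both comparisons (-0.29, limma adjusted p = 0.00745, and -0.23, 0.0224).

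Some members share exon bases with another gene in GENCODE M21, and since no source used here says whether strand was counted, reads of the pair cannot be told apart. The shares of exon bases were 32.8% for Atg9a (with Gm29253), 31.6% for Becn1 (with Cntd1), 27.4% for Gabarapl1 (with 1700101I11Rik) and 21.7% for Uvrag (with Gm45187). Atg14, Rb1cc1, Optn and Tax1bp1 shared 5.91% or less, and the other 26 none. Among the partners, Cntd1 had 15.4, 18.3 and 17.6 CPM with PD-L1 antibody, 16.3, 15.8 and 16.4 CPM with isotype antibody and 16.5, 19.3 and 21.3 CPM in untreated libraries, and 1700101I11Rik averaged 1.72 CPM.

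Levels of different genes can be set side by side only per exon length. Per exonic kilobase, Sqstm1 was the most abundant member in all groups, with 597, 584 and 505 CPM per kilobase in PD-L1 antibody libraries, 391, 398 and 449 in isotype antibody and 407, 335 and 328 in untreated libraries, at the 99.2 percentile of all tested genes. Gabarap came next in each group (289 CPM per kilobase on average with PD-L1 antibody, 266 with isotype antibody and 271 untreated). In PD-L1 antibody libraries Tax1bp1 (81.9 to 94.6), Map1lc3b (67.4) and Gabarapl1 (52.2) followed. Tax1bp1 stood apart from Map1lc3b and Map1lc3b from Gabarapl1, while Gabarapl1 (47.4 to 57.9) overlapped Vmp1 (43.3 to 49.0) after it. In the other groups Map1lc3b and Gabarapl1 followed without being separable, at 88.5 and 83.7 with isotype antibody and 86.6 and 84.9 in untreated libraries, and Tax1bp1 came after them (57.0 and 53.3). Vmp1 was 6th in the order with PD-L1 antibody, 13th with isotype antibody and 10th in untreated libraries, and Calcoco1 22nd, 16th and 15th. The lowest members were Optn, Atg10 and Wipi1, with 3.97, 4.04 and 5.08 CPM per kilobase on average in PD-L1 antibody libraries. Of the 33 pairs of neighbours in the order, the libraries of 21 overlapped with PD-L1 antibody, 21 with isotype antibody and 26 in untreated libraries, so most neighbours do not differ beyond their spread. The receptors together came to 731.0, 718.1 and 628.6 CPM per kilobase with PD-L1 antibody, against 500.3, 501.2 and 564.6 with isotype antibody and 513.4, 438.5 and 436.0 in untreated libraries. Sqstm1 alone made up 81.1% of this sum on average with PD-L1 antibody, 79.0% with isotype antibody and 77.0% in untreated libraries. The sum thus mostly repeats the level of Sqstm1 and does not show a joint rise of the receptors.

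**Figure D4:**
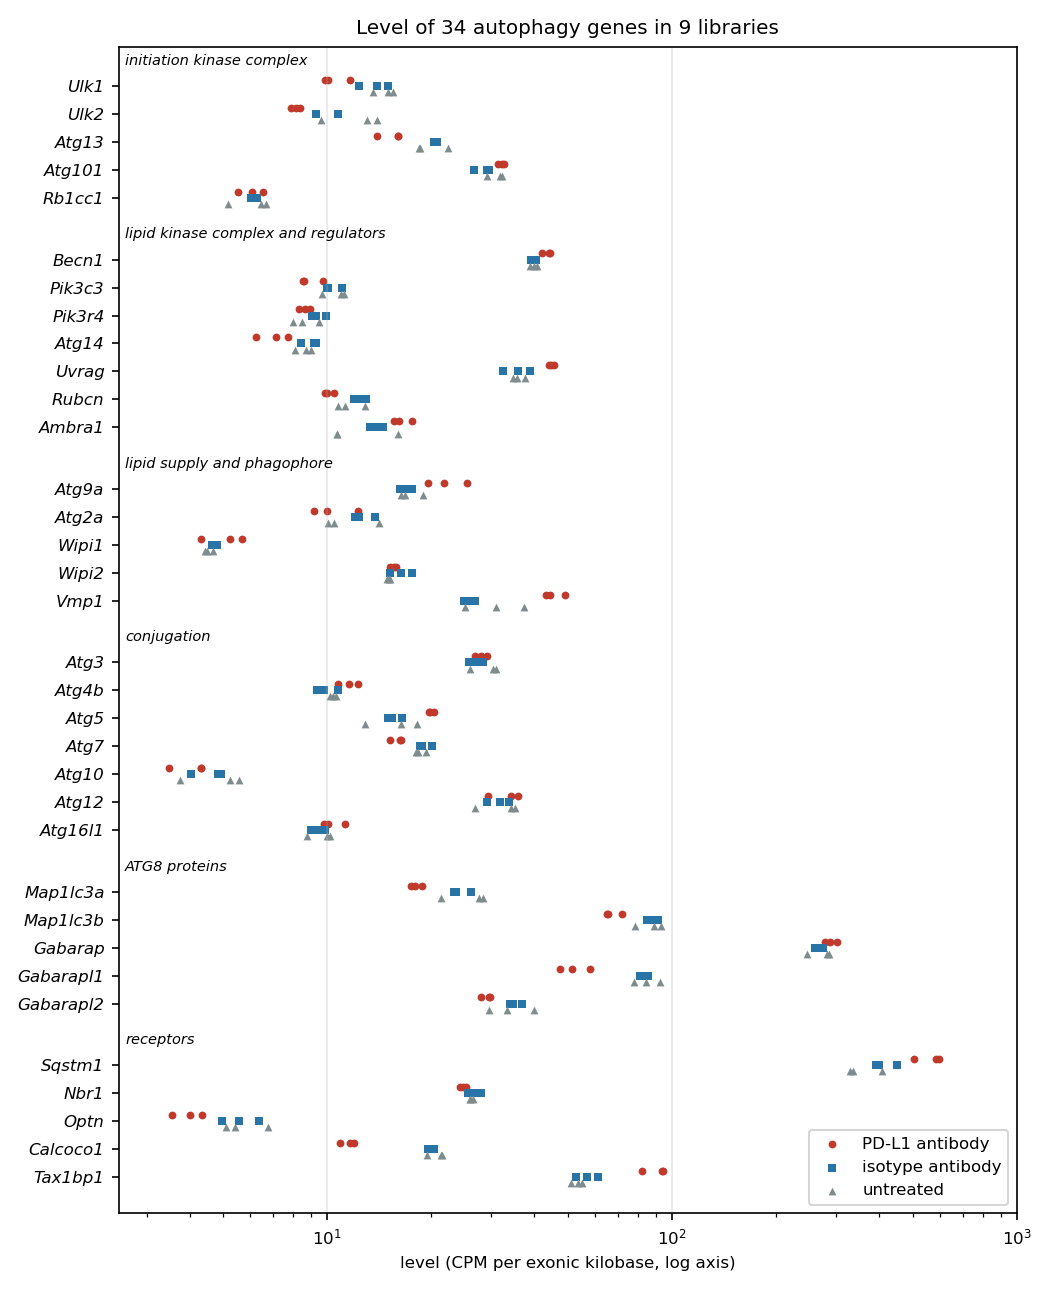
Level of each of the 34 genes in CPM per exonic kilobase on a log axis, by role, with 1 point per library. Sqstm1 lies between 505 and 597 with PD-L1 antibody and between 328 and 449 in the other 6 libraries, and Calcoco1 between 10.9 and 12.0 against 19.5 to 21.6.

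The comparison of isotype antibody with untreated wells asks what antibody protein as such did. No member was called in limma (0 higher and 0 lower), beside 0.00728% of all genes (1 gene). Before adjustment 0 members had a limma p under 0.05, beside 1748 of the 13740 genes tested. DESeq2 and edgeR's quasi-likelihood test also called 0 members. Log2 fold changes ran from -0.24 (Vmp1) to 0.21 (Sqstm1), with a median of 0 over the members and over all genes. The libraries did not overlap for 1 member (2.94%), Wipi2, beside 13.2% of all genes, at 59.5, 69.4 and 64.1 CPM with isotype antibody and 59.3, 59.4 and 58.1 CPM in untreated libraries. Untreated 7 stood apart from untreated 8 and 9, and without it limma called 1337 genes higher and 958 lower with isotype antibody. Among the members Ambra1 was then called higher (0.37, limma adjusted p = 0.00764) and Ulk2 (-0.39, 0.00993) and Vmp1 (-0.39, 0.0149) lower.

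Other genes of the pathway, taken from lists of its parts, included larger changes than any member. Counts in these lists are to be read beside the 36.4% of all genes called against isotype antibody and 42.4% against untreated wells. Of 23 further core autophagy genes 2 rose and 7 fell with PD-L1 antibody against isotype antibody, and 5 rose and 6 fell against untreated wells. Tecpr1, a tether between autophagosome and lysosome, had 91.2, 80.6 and 103 CPM with PD-L1 antibody, against 222, 258 and 246 CPM with isotype antibody and 281, 223 and 229 CPM in untreated libraries (-1.40, limma adjusted p = 4.43e-06). Plekhm1, an adaptor of lysosome fusion, and Wdr45, another phosphatidylinositol 3-phosphate reader, also fell (-0.72, limma adjusted p = 0.000154, and -0.71, 0.00048). Of 20 further selective autophagy receptors 3 rose and 8 fell against isotype antibody, and 5 rose and 8 fell against untreated wells. Bnip3, a mitochondrial receptor that hypoxia induces, had 52.5, 57.99 and 52.4 CPM with PD-L1 antibody, against 14.6, 14.4 and 11.1 CPM with isotype antibody and 12.3, 15.1 and 15.9 CPM in untreated libraries (1.95, limma adjusted p = 9.06e-07). Ncoa4, the receptor that sends ferritin to the lysosome, fell (-1.07, limma adjusted p = 1.47e-05), as did Pink1, the kinase that marks damaged mitochondria (-1.12, 0.000161). Of 25 upstream control genes 4 rose and 8 fell against isotype antibody, and 6 rose and 7 fell against untreated wells. Among them the mTOR inhibitor Ddit4 rose by 1.94 (limma adjusted p = 3.72e-05), while falls were called for Deptor, which also inhibits mTOR (-1.28, 0.000114), and for the nutrient-signalling protein gene Flcn (-0.71, 4.82e-05).

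The transcription factors that switch on autophagy and lysosome genes changed in opposite ways. Tfeb had 63.4, 61.5 and 73.4 CPM with PD-L1 antibody, 128, 161 and 119.6 CPM with isotype antibody and 149, 159 and 148 CPM in untreated libraries, and its falls were -1.02 (SE 0.11, limma adjusted p = 3.98e-05) and -1.19 (1.25e-05). Its relatives rose in both comparisons, Tfe3 by 0.41 (limma adjusted p = 0.00406) and 0.35 (0.00816) and Mitf by 0.45 (0.00638) and 0.50 (0.00293), and Tfec was not called (0.13 and 0.00). By level, the PD-L1 antibody libraries held 205, 205 and 243 CPM of Tfe3, against 171, 169.8 and 151 CPM with isotype antibody and 165, 177 and 169 CPM in untreated libraries. Of 10 genes of the Nrf2 pathway, to which p62 is tied through Keap1, 7 rose and 1 fell against isotype antibody, and 8 rose and 0 fell against untreated wells. Nfe2l2, which encodes Nrf2 itself, was not called (-0.21, limma adjusted p = 0.123, and -0.26, 0.0546). The target gene Hmox1 (haem oxygenase) had 1118, 1338 and 1003 CPM with PD-L1 antibody, against 258, 262 and 260.1 CPM with isotype antibody and 258, 251 and 258 CPM in untreated libraries (2.13, limma adjusted p = 7.08e-08). Gsr (glutathione reductase) rose by 1.11 (6.4e-05) and Keap1 itself by 0.57 (0.000182). Of 6 oxidase genes that LC3-associated phagocytosis needs, 3 rose against isotype antibody and 4 against untreated wells, with 0 falls, and those against isotype antibody were Rac2 (0.94), Ncf1 (0.71) and Cybb (0.70). With isotype antibody over untreated wells 0 genes of these lists were called.

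**Figure D5:**
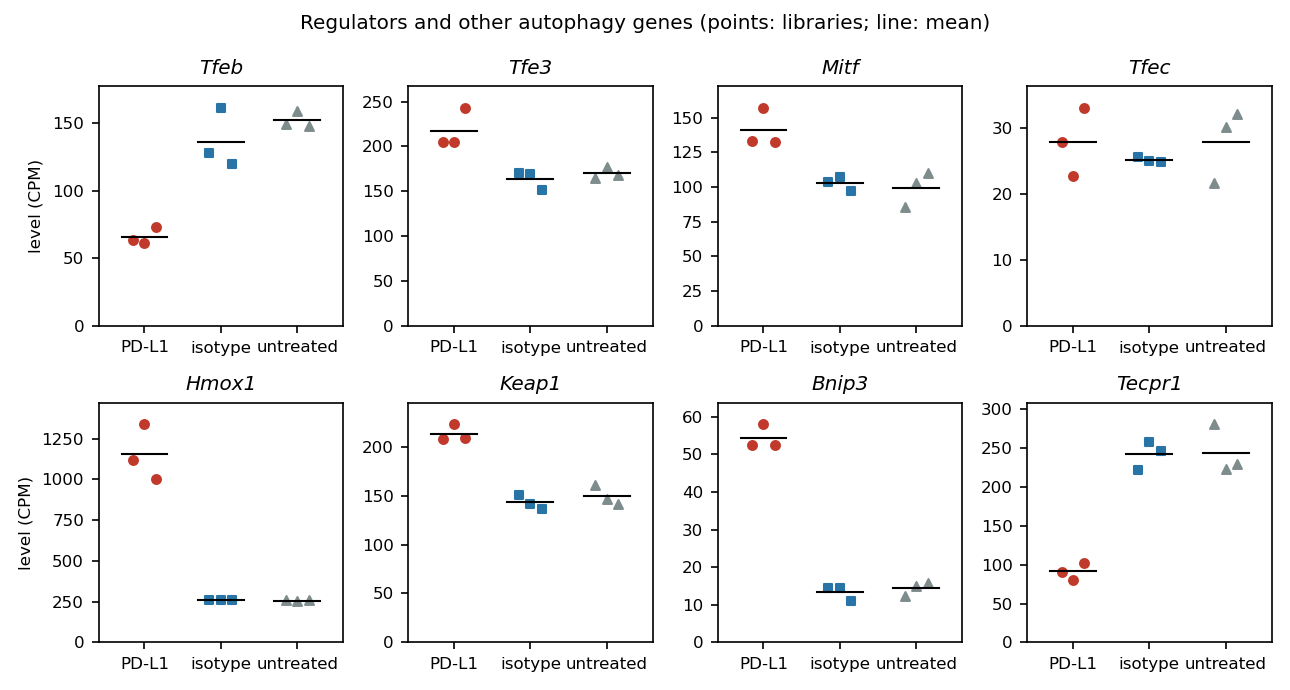
CPM in each library (points, with the group mean as a line) for 4 TFE transcription factor genes (upper row) and for Hmox1, Keap1, Bnip3 and Tecpr1 (lower row). PD-L1 antibody libraries lie at 61.5 to 73.4 CPM for Tfeb against 119.6 to 161 in the other 6, and at 1003 to 1338 CPM for Hmox1 against 251 to 262.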

How the data were processed

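RNA of 9 wells (3 with PD-L1 antibody, 3 with isotype antibody and 3 untreated) was sequenced with reads of 150 bases. The deposited tables, 1 per library, give for each transcript the authors' read count, average coverage (signal) per exonic base, percent of exonic bases covered, a mean base quality score, and position. Per the submitters' processing notes, Partek and STAR were used, and the step, version and genome build of each are not given in the sources used here. Positions matched GRCm38, where 99.09% of symbols overlapped the gene of that name in GENCODE M21. The deposited read counts cover whole gene spans with introns, so coverage was multiplied by exon length and divided by read length to give exonic read equivalents, which are estimates of reads and not counts. For each symbol the transcript with the largest mean was kept.

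Genes were filtered with filterByExpr and scaled with TMM factors (edgeR 4.0.16), which were 0.919 to 0.932 for PD-L1 antibody and 1.009 to 1.063 for the other libraries. Values of log2(CPM + 1) of all 9 libraries went into 1 limma fit (3.58.1, R 4.3.3) with trended variance. This log2 scale understates changes of low genes. Calls had a Benjamini-Hochberg adjusted p under 0.05 over all genes tested. The pipeline was tested on simulated data. Alternatives were other scalings, filters and pseudocounts (0.5 and 5), edgeR, DESeq2 (1.42.0) on rounded read equivalents, edgeR on the deposited counts, the longest transcript, the 2 compared groups only, and each library left out.

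The 34 members, the gene lists and the tests were chosen with earlier results of these data known. All members are named, and from each other list the 3 genes with the lowest p against isotype antibody. Genes sharing transcripts with near-identical copies were found with BLAST 2.17.0 (at least 95% identity over 300 bases). Proteins were not used here.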

Additional observations from a re-analysis of the deposited data

How the results depend on the processing

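Scaling by total counts moved the split most. It gave 1565 genes higher and 4142 lower against isotype antibody (2 members higher and 17 lower), and 1940 genes higher with 3 members higher against untreated wells. EdgeR on the deposited span counts gave 2 members higher against isotype antibody and 4 against untreated wells, and turned Vmp1 against untreated wells to -0.19. For isotype antibody over untreated wells, genes called higher were 0 without a filter, with edgeR on exonic read equivalents and with 2 groups only, and 8 with DESeq2, which called 5 lower. Genes called lower were 1 with total counts, without a filter and with edgeR on deposited counts.

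Leaving out each library in turn gave 1921 to 2977 genes higher and 1853 to 3053 lower against isotype antibody (members 5 to 7 and 7 to 13), 2361 to 3443 and 2163 to 3323 against untreated wells (members 4 to 7 and 8 to 13), and 0 to 1337 and 0 to 958 for isotype antibody over untreated wells (members 0 to 1 and 0 to 2). The lowest member count of 4 came without PD-L1 antibody 3, and the highest counts of the last comparison without untreated 7. Over all members and alternatives against isotype antibody, 662 values stayed on their side of the threshold, 23 gained a call and 29 lost one, and against untreated wells 666, 13 and 34, with 1 reversed. The cause of these changes was not tested.

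No paired analysis was possible because the labels number the libraries 1 to 9 and the groups share no number. With 3 libraries a group, a change that missed the threshold is not shown to be absent.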

Other observations

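Further genes of the pathway lists are named here, chosen after their values were seen. Tbk1, the kinase that acts on Optn and Sqstm1, rose by 0.60 on the log2 scale with PD-L1 antibody against isotype antibody (limma adjusted p = 0.000188) and by 0.60 (0.000166) against untreated wells. The cystine transporter gene Slc7a11, an Nrf2 target, rose by 2.04 (limma adjusted p = 0.000326) and 2.80 (3.06e-05), whereas Gclc, which makes a glutathione precursor, fell (-0.31, 0.0361) against isotype antibody. The Sestrin genes, whose products restrain mTOR, split: Sesn2 rose by 0.45 (limma adjusted p = 0.00219) and Sesn1 fell (-1.58, 0.000344).

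Among genes linked to the endoplasmic reticulum in the list of other selective receptors, Rtn3 rose by 0.51 on the log2 scale against isotype antibody (limma adjusted p = 0.00114). Falls were called for Ccpg1 (-0.81, limma adjusted p = 0.000173), Retreg1 (-0.41, 0.00288), Retreg2 (-0.40, 0.00589) and Tex264 (-0.25, 0.0374), and Retreg3 (-0.01) and Sec62 (-0.19) were not called. The PD-L1 antibody libraries held 46.1, 41.7 and 39.7 CPM of Ccpg1, against 80.0, 73.9 and 71.8 CPM with isotype antibody and 59.3, 71.5 and 79.8 CPM in untreated libraries.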
